A study of Mus musculus and Homo sapiens with 12 samples.

Results

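The aryl hydrocarbon receptor (AHR) and 6 genes tied to it were examined in blood progenitors with less of the RNA helicase DDX21. The genes were AHR, its partner ARNT, the feedback inhibitors AHRR and TIPARP, the cytochrome P450 enzymes CYP1A1 and CYP1B1, and the quinone reductase NQO1. They were taken by symbol, without regard to case, from 55487 mouse and 78932 human genes counted, and all 7 were found in each species. Of these, 5 in the mouse and all 7 in the human cells had enough counts to be tested. The genes were chosen by name, with the fold changes and counts of these same contrasts known, so the members' own differences are given as a description. Calls named for a member come from the fit over all genes and are no test of that member.

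Messenger RNA was sequenced in 12 libraries, 3 in each of 4 groups. The mouse cells were lineage-negative, Kit-positive progenitors (LK cells) sorted from fetal liver at E13.5. The wild-type (WT) group was Ddx21f/f, with both alleles flanked by loxP sites, and the conditional knockout (cKO) group was Vav-Cre; Ddx21f/f, in which the Vav promoter drives Cre in blood cells. The human cells were blood progenitors differentiated from H1, an established embryonic stem cell line, given lentivirus with a control hairpin (shNC-mCherry) or a hairpin against DDX21 (shDDX21-mCherry), and sorted 2 days later as CD34+, CD45+, CD43+ and hairpin-positive. Both human groups were thus transduced, and no untransduced cells were analysed here. The WT label lists no Cre, so Cre itself and loss of Ddx21 cannot be told apart. Whether the 3 libraries of a group came from separate embryos or cultures is not given in the labels, so p-values measure the spread between these libraries, which may be technical.

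AHR is a ligand-activated transcription factor of the bHLH-PAS family. Without ligand it is held in the cytoplasm by HSP90 and p23. With ligand, such as dioxins, dietary indoles or the tryptophan metabolite kynurenine, it enters the nucleus, pairs with ARNT and binds short DNA elements at its target genes, of which CYP1A1 and CYP1B1 are the classic examples. AHRR competes with AHR for ARNT, and TIPARP, an ADP-ribosyltransferase, promotes degradation of AHR, so both close a feedback loop. In blood formation the pathway is known from culture, where AHR antagonists are used to expand human CD34+ progenitors.

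Total counts ranged from 21116079 to 23898130 per mouse library and from 15289510 to 19798608 per human library. Counts of Ddx21 were 29393 to 31438 in WT and 6208 to 6981 in cKO, and counts of DDX21 were 7128 to 9012 in shNC and 1168 to 1336 in shDDX21. The sorted mouse cells held Kit at a mean of 40.7 RPKM in WT and 35.6 RPKM in cKO, with at most 1 count of Ly6g or Cd3e in any library. The human cells held CD34 at 27.0 and 32.3 RPKM. Among the mouse WT libraries replicate 3 stood apart: the chi-square per degree of freedom was 1.96 between replicates 1 and 2, and 15.7 and 10.9 for the pairs with replicate 3. The cKO libraries all differed from each other, by 25.1 for replicates 1 and 2, 7.25 for 1 and 3 and 7.82 for 2 and 3, so that no single one stood apart. The human replicates differed by 1.54 to 1.71. Without WT replicate 3 the log2 fold change was -1.97 for Cyp1a1 against -1.96 with all 6 libraries, 0.37 for Ahr against 0.33, -0.11 for Arnt against -0.08, -0.15 for Tiparp against -0.18 and -0.22 for Nqo1 against -0.26.

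The promoter sequences of the mouse genes are shown first, because AHR and ARNT together recognise a fixed core, 5′-GCGTG-3′. The windows are the 250 bases before the start site, taken from RefSeq (GRCm38.p6), and capitals mark every match to the core on either strand, where CACGC is a match on the opposite strand. Of the 7 genes, 6 were in the table; Ahr was not. Cyp1a1 is shown as the mouse gene of the set with the largest fall, and Tiparp and Ahrr as the feedback inhibitors. They are at chr9:57697363-57697612 (plus strand), chr3:65528197-65528446 (plus strand) and chr13:74292332-74292581 (minus strand). The Cyp1a1 window lies inside the gene span of the deposited table, which begins at 57687928. The Tiparp window ends inside its gene span, which begins at 65528410. Windows before other start sites are not shown.
Cyp1a1: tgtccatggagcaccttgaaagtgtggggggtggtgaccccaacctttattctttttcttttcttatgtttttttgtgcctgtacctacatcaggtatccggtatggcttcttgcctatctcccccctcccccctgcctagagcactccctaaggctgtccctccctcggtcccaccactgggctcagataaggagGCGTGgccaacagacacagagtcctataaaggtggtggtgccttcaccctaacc
Tiparp: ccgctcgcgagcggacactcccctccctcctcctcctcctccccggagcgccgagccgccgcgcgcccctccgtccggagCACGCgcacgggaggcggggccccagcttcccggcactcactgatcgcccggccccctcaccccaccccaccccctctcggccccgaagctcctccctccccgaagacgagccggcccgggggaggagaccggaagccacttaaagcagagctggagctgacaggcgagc
Ahrr: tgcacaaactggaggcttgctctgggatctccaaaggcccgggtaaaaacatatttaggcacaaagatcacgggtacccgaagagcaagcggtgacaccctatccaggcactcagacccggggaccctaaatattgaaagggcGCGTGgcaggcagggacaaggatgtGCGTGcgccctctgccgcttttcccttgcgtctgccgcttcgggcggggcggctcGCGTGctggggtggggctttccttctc
The Cyp1a1 window held 1 core, 54 bases before the start site. The Tiparp window held 1, at 170 bases, on the opposite strand. The Ahrr window held 3, at 107, 82 and 27 bases. Arnt held 1 core at 29 bases and Cyp1b1 held 1 at 76 bases on the opposite strand, while no core was found in the Nqo1 window. The longer form TNGCGTG was found in the Ahrr window alone among these 6. For comparison, 28.2% of 32851 promoter windows of this length held the core and 4.10% held the longer form. A match is a run of letters and not evidence of binding, and the well-known enhancer elements of Cyp1a1 lie further upstream than this window.

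The mean level of the receptor itself was not lower in either experiment. Mouse Ahr (ENSMUSG00000019256; GRCm38 chromosome 12, 35497974 to 35535038, minus strand) gave 175, 166 and 189 reads in the WT libraries against 231, 253 and 235 in the cKO libraries. All 3 cKO libraries lay above all 3 WT libraries. The scaled level was 8.23 ± 0.480 CPM (counts per 1000000 of the TMM-scaled library; SD, n = 3) in WT and 10.3 ± 0.305 CPM in cKO, a log2 fold change of 0.33 (SE 0.088). Human AHR (ENSG00000106546; chromosome 7, 16916359 to 17346152, plus strand, in the hg38 coordinates of the deposited table) had 748, 561 and 741 reads in shNC against 858, 756 and 699 in shDDX21. The groups overlapped once scaled, at 39.3 ± 2.55 and 42.9 ± 2.70 CPM (SD, n = 3 per group), with a log2 fold change of 0.12 (SE 0.055). Both of these values stood near the calling threshold, an adjusted p of 0.05 by edgeR. Mouse Ahr was called higher with all libraries but lost the call in 6 of 13 alternatives, which were DESeq2, no filter on low counts, and leaving out WT replicate 1, WT replicate 2, cKO replicate 2 or cKO replicate 3, with log2 fold changes of 0.29 to 0.39 over all 13. Human AHR was not called, and was called higher in 5 of 12 alternatives, with values from 0.08 to 0.19.

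ARNT, the obligate partner of AHR and also of the hypoxia factors, stayed close to its control level in the mouse and was lower in the human cells. Mouse Arnt (ENSMUSG00000015522; chromosome 3, 95434388 to 95497240, plus strand) gave 1908, 1776 and 1758 reads in WT against 1810, 1993 and 1785 in cKO. That is 84.5 ± 2.59 and 80.2 ± 1.18 CPM (SD, n = 3 per group), 94.8% of WT, with a log2 fold change of -0.08 (SE 0.043). The scaled groups did not overlap, but the difference was small and was not called. Human ARNT (ENSG00000143437; chromosome 1, 150809713 to 150876708, minus strand) gave 1609, 1302 and 1501 reads in shNC against 1023, 923 and 944 in shDDX21. Every shDDX21 library lay below every control, at 53.7 ± 1.11 CPM against 84.9 ± 0.356 CPM (SD, n = 3 per group), or 63.2% of shNC, and the log2 fold change was -0.66 (SE 0.041).

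CYP1A1, the monooxygenase most used as a readout of AHR activity, was low in both cell types and lower still with less DDX21. Mouse Cyp1a1 (ENSMUSG00000032315; chromosome 9, 57687928 to 57703824, plus strand) gave 33, 35 and 34 reads in WT against 4, 11 and 13 in cKO. The 3 WT libraries were nearly equal, and the cKO library with the most counts was still far below them. The level was 1.59 ± 0.112 CPM in WT against 0.403 ± 0.211 CPM in cKO (SD, n = 3 per group), 25.4% of WT, with a log2 fold change of -1.96 (SE 0.33). The lowest library was cKO replicate 1, and without it the value was -1.60. Human CYP1A1 (ENSG00000140465; chromosome 15, 74719542 to 74725536, minus strand) gave 91, 101 and 104 reads in shNC against 24, 13 and 15 in shDDX21. Again no library of one group reached the other: the level was 5.75 ± 0.893 CPM in shNC and 0.952 ± 0.246 CPM in shDDX21 (SD, n = 3 per group), 16.6% of the control. The human log2 fold change was -2.56 (SE 0.22), the 18th lowest of the 20188 genes tested, while the mouse value was the 63rd lowest of 14918.

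CYP1B1, a relative of CYP1A1 that also metabolises oestrogens and polycyclic hydrocarbons, was more abundant than CYP1A1 in the human cells. Human CYP1A2 was not analysed here. Human CYP1B1 (ENSG00000138061; chromosome 2, 38066973 to 38109902, minus strand) gave 830, 695 and 821 reads in shNC against 135, 122 and 114 in shDDX21. The spread within each group was small beside the gap between them. The level fell from 45.2 ± 1.15 to 6.88 ± 0.372 CPM (SD, n = 3 per group), 15.2% of the control, for a log2 fold change of -2.71 (SE 0.078), the 13th lowest of all genes tested. Its exons share 14.8% of their bases with CYP1B1-AS1, an antisense gene, which had 25 to 39 reads in shNC against 9 to 10 in shDDX21. Whether reads were counted by strand is not given in the sources used here, so reads from the shared stretch cannot be told apart. In the mouse progenitors Cyp1b1 (ENSMUSG00000024087; chromosome 17, 79701537 to 79715061, minus strand) was at 0 counts in 5 libraries and had 2 counts in cKO replicate 3. At this depth 3 counts correspond to 0.122 to 0.146 CPM in a library, so mouse Cyp1b1 was not detectable above that level in either group, and no fold change is given.

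The feedback inhibitors were lower in the human cells. Human TIPARP (ENSG00000163659; chromosome 3, 156673235 to 156706770, plus strand) gave 1270, 1031 and 1222 reads in shNC against 924, 789 and 819 in shDDX21. The scaled values were tight within each group and did not overlap, at 67.8 ± 0.874 and 46.9 ± 0.423 CPM (SD, n = 3 per group), 69.3% of the control, for a log2 fold change of -0.53 (SE 0.045). Mouse Tiparp (ENSMUSG00000034640; chromosome 3, 65528410 to 65555518, plus strand) gave 272, 246 and 280 reads in WT against 242, 291 and 231 in cKO. Once scaled, the cKO libraries lay just below WT, at 10.9 ± 0.743 against 12.4 ± 0.536 CPM (SD, n = 3 per group), with a log2 fold change of -0.18 (SE 0.088) that was not called. Human AHRR (ENSG00000063438; chromosome 5, 321714 to 438291, plus strand) gave 219, 161 and 195 reads in shNC against 161, 153 and 139 in shDDX21. Its level was 11.0 ± 0.541 and 8.42 ± 0.592 CPM (SD, n = 3 per group), 76.4% of the control, without overlap, and the log2 fold change was -0.39 (SE 0.11). This value is uncertain, because 58.7% of the AHRR exon bases also belong to the readthrough gene PDCD6-AHRR on the same strand, which had 3 to 24 reads in shNC against 10 to 15 in shDDX21. Mouse Ahrr (ENSMUSG00000021575; chromosome 13, 74211118 to 74292331, minus strand) gave 5, 4 and 4 reads in WT against 6, 3 and 10 in cKO, which is too few to be tested.

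NQO1, a quinone reductase controlled by both AHR and the oxidative stress factor NRF2, was lower in the human cells. Human NQO1 (ENSG00000181019; chromosome 16, 69706996 to 69726668, minus strand) gave 99, 87 and 111 reads in shNC against 84, 63 and 72 in shDDX21. The scaled levels were 5.72 ± 0.505 and 4.05 ± 0.292 CPM (SD, n = 3 per group), 70.8% of the control, for a log2 fold change of -0.49 (SE 0.15) and no overlap. Mouse Nqo1 (ENSMUSG00000003849; chromosome 8, 107388225 to 107403206, minus strand) gave 202, 238 and 247 reads in WT against 189, 238 and 195 in cKO. Here the groups overlapped, at 10.7 ± 1.42 and 8.91 ± 0.709 CPM (SD, n = 3 per group), and the log2 fold change of -0.26 (SE 0.12) was not called.

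**Figure D1:**
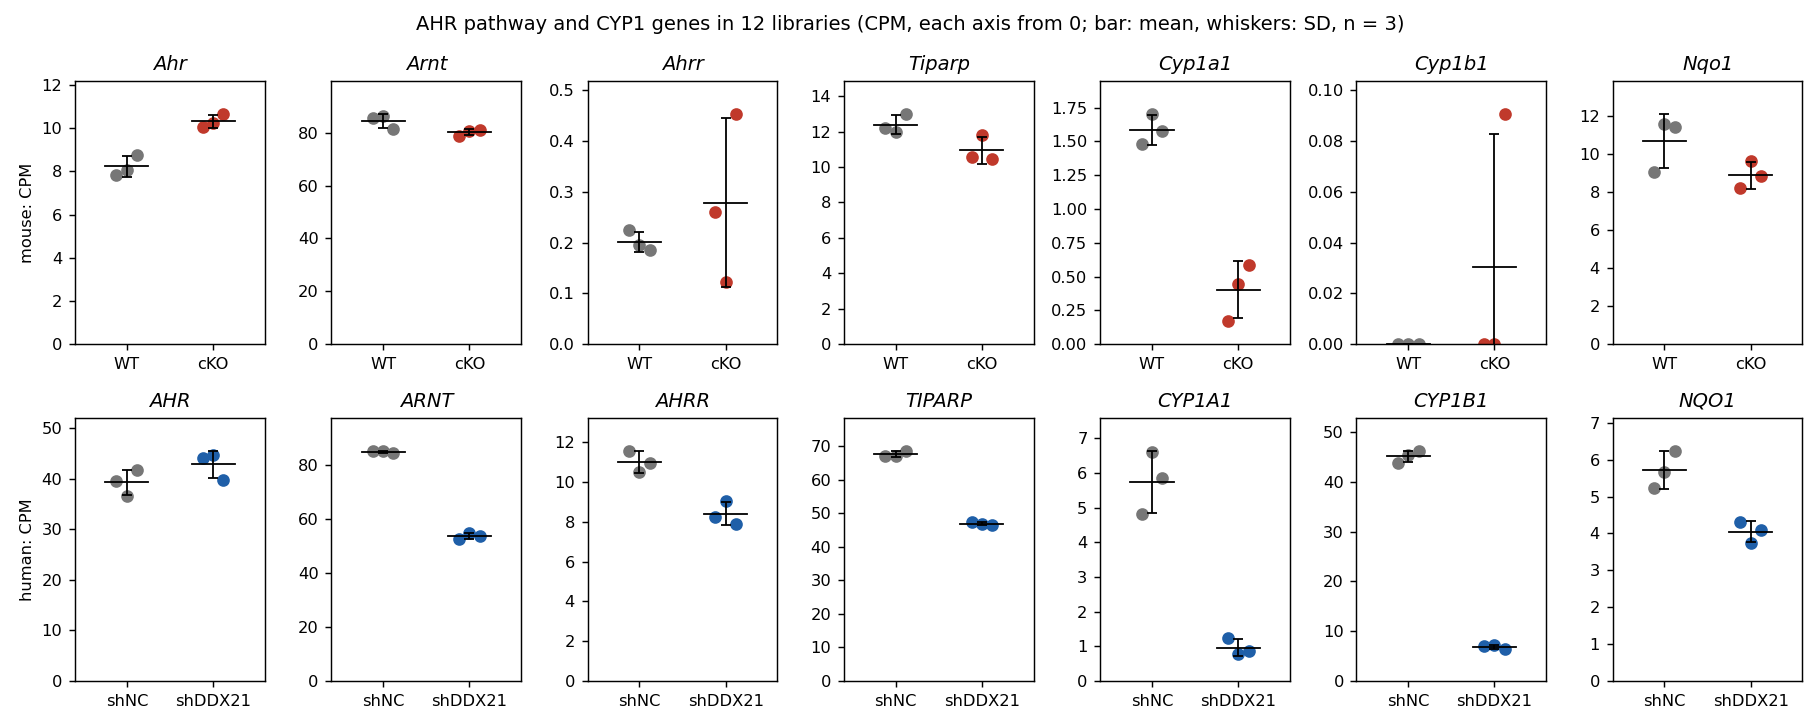
Level of the 7 genes as scaled counts (CPM, vertical axis, from 0 in each panel) in the 3 libraries of each group; points are libraries, bars the mean and whiskers the SD. Cyp1a1, CYP1A1 and CYP1B1 drop to 25.4%, 16.6% and 15.2% of the control, while Ahr moves from 8.23 to 10.3 CPM and AHR from 39.3 to 42.9 CPM.

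Counted together, 2 of the 5 mouse genes that could be tested were called, Ahr higher and Cyp1a1 lower, where 36.5% of all mouse genes tested were called, 20.7% higher and 15.8% lower. In the human cells 6 of 7 were called, all lower, where 52.7% of all genes tested were called, 25.3% higher and 27.4% lower. The groups did not overlap for 4 of 5 mouse genes, against 49.0% of all genes tested, and for 6 of 7 human genes, against 57.4%. The median log2 fold change of the tested genes of the set was -0.18 in the mouse, where that of all genes tested was 0.00057, and -0.53 in the human cells, where it was 0.0052. Since these contrasts helped to choose the genes, nothing is read from the counts or medians. In the human cells the members fell into 3 ranges: AHR near its control level, ARNT, AHRR, TIPARP and NQO1 at 63.2% to 76.4% of it, and CYP1A1 and CYP1B1 at 16.6% and 15.2%.

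**Figure D2:**
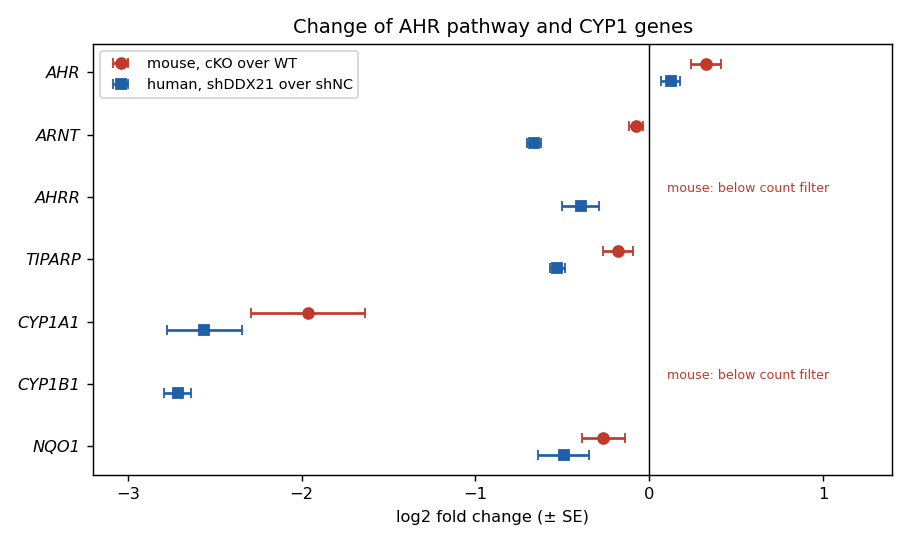
Log2 fold change (horizontal axis) of each gene with its standard error, in mouse cKO over WT (circles) and human shDDX21 over shNC (squares). The CYP1 genes sit at -1.96, -2.56 and -2.71, and the other values between -0.66 and 0.33; mouse Ahrr and Cyp1b1 had too few counts.

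Levels were also compared between genes, per length of exon (RPKM, the CPM divided by exon length in kilobases). In WT mouse progenitors Arnt had the highest RPKM of the set, at 10.6 ± 0.324 (SD, n = 3), followed by Nqo1 at 6.89 ± 0.917, Tiparp at 2.84 ± 0.123, Ahr at 1.34 ± 0.0779 and Cyp1a1 at 0.569 ± 0.0402. Ahrr stood at 0.0213 ± 0.00214 RPKM and Cyp1b1 at 0 counts. No neighbours in this order overlapped in their libraries, and the order of these 7 genes was kept in cKO, where the last pair, Ahrr and Cyp1b1, did overlap. In the human controls the order began with TIPARP at 14.1 ± 0.182 RPKM, ARNT at 13.2 ± 0.0553, CYP1B1 at 7.50 ± 0.191 and AHR at 4.88 ± 0.317 (SD, n = 3 per group). NQO1 at 1.93 ± 0.170 and CYP1A1 at 1.71 ± 0.266 RPKM overlapped, and AHRR was lowest at 1.16 ± 0.0571. These values divide by the full exon length, but 58.7% of AHRR exon bases are shared with PDCD6-AHRR on the same strand. For AHR 29.5% are shared on the same strand with another gene, which had 0 counts in every library. How reads from shared bases were counted is not given, so the places of AHRR and AHR are uncertain in both human groups. In shDDX21 the order changed through the CYP1 genes: CYP1B1 passed from the third place, above AHR, to the fifth, at 1.14 RPKM and below NQO1 at 1.36, and CYP1A1 fell to the last place at 0.283 RPKM, below AHRR at 0.888. TIPARP, ARNT and AHR kept their relative order, at 9.78, 8.32 and 5.33 RPKM. The receptor and its partner were thus detected in both cell types. CYP1B1, more abundant than CYP1A1 in the human cells, was at or near 0 counts in the mouse.

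**Figure D3:**
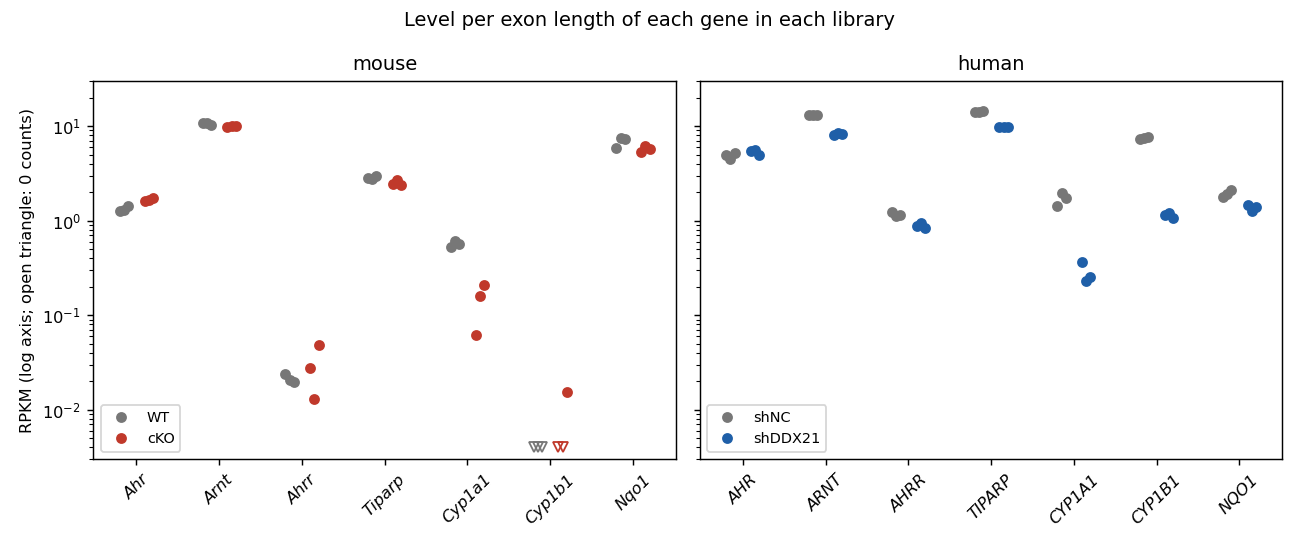
Level per exon length (RPKM, log axis) of the 7 genes in each library of the mouse (left) and human (right) groups, with open triangles for 0 counts. In the human libraries CYP1B1 moves from 7.50 RPKM, above AHR, to 1.14 RPKM, below it.

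These are bulk libraries, in which fewer cells of a type and less RNA per cell cannot be told apart, so markers of other cell types were read beside the values above. Summed myeloid markers were lower in both experiments, as were the summed erythroid markers given further below. The summed level of 12 granulocyte and monocyte markers was 740 to 1003 CPM in WT against 347 to 594 CPM in cKO, with all 11 tested markers called lower. In the human cells 9 of these markers, summed, were at 774 to 788 CPM in shNC and 579 to 586 CPM in shDDX21, with 7 lower and 1 higher. The higher one was CSF1R, at a mean of 361 CPM in shNC and 419 CPM in shDDX21. Macrophage markers summed to 2.97 to 3.60 CPM in WT against 1.34 to 2.45 CPM in cKO, with 1 of 2 tested lower and C1qc at 0 throughout, and to 125 to 136 and 72.0 to 76.3 CPM in the human groups, with 4 of 4 lower. Hepatocyte markers moved the other way in the mouse: the sum of 10 was 14.8 to 16.5 CPM in WT against 50.2 to 53.7 CPM in cKO, and all 7 tested were higher. Only 2 of the 10 were matched in the human table, and both were lower, at 8.49 to 10.5 CPM summed in shNC and 5.39 to 5.64 CPM in shDDX21. The part of these cell types in the fall of the CYP1 genes was not tested.

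The remaining marker lists moved in different directions, with the erythroid sum lower in both experiments. Erythroid markers summed to 1792 to 1839 CPM in WT against 1091 to 1141 CPM in cKO (4 of 6 lower, 1 higher), and to 1727 to 1745 and 1380 to 1392 CPM in the human groups (2 of 6 lower, 3 higher). Megakaryocyte markers were at 114 to 133 CPM in WT against 192 to 264 CPM in cKO (3 of 6 higher), and at 1615 to 1690 and 1893 to 1926 CPM in the human groups (3 of 5 higher, 1 lower). Endothelial markers were at 45.8 to 49.2 and 86.7 to 95.0 CPM in the mouse (5 of 6 higher) and at 1523 to 1564 and 1394 to 1413 CPM in the human cells (3 of 6 higher, 2 lower). Stromal markers were at 10.9 to 14.8 and 16.0 to 22.4 CPM in the mouse (1 of 2 tested higher) and at 154 to 161 and 159 to 165 CPM in the human cells (1 of 4 higher, 3 lower). Mast cell markers were at 29.7 to 30.6 and 41.9 to 50.5 CPM in the mouse (1 of 2 tested higher), and at 6.53 to 6.77 and 6.11 to 7.47 CPM in the human cells, where none of 3 was called.

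The rest of the pathway was then read from 6 lists: the receptor complex with its turnover and partners, further AHR targets, the tryptophan and kynurenine enzymes that supply ligands, the NRF2 battery that shares NQO1, the hypoxia branch that shares ARNT, and other P450 and conjugating enzymes. Without the 7 genes themselves they hold 124 genes. Of 107 tested in the mouse, 53 were called, 31 higher and 22 lower (49.5%), and of 102 tested in the human cells 80 were called, 28 higher and 52 lower (78.4%). Over all genes tested the shares called were 36.5% and 52.7%, and over the 10313 genes matched by symbol and tested in both experiments they were 41.3% and 68.4%. The counts of each list below stand beside these shares, and nothing particular to a list is read from them. Scaling to total counts gave 35 higher and 16 lower in the mouse, and leaving out WT replicate 3 gave 27 of each. The adjusted p-values below are from edgeR's quasi-likelihood test over all genes of an experiment.

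Among the 20 genes of the complex, 5 were higher and 5 lower in the mouse, with a median log2 fold change of -0.04, and 2 were higher and 12 lower of 19 tested in the human cells, with a median of -0.14. HSP90AA1, the chaperone that holds the unliganded receptor, fell from 1300.0 ± 5.58 to 773 ± 2.89 CPM (SD, n = 3 per group) in the human cells (log2 fold change -0.75, edgeR adjusted p = 1.26e-45). NRIP1, a corepressor, fell by 0.36 on the log2 scale (edgeR adjusted p = 5.02e-14) and CUL4B, a scaffold of the ubiquitin ligase that AHR forms, by 0.35 (edgeR adjusted p = 1.13e-12). In the mouse the retinoblastoma protein gene Rb1, whose product binds AHR, rose from 55.1 ± 3.50 to 110.5 ± 6.31 CPM (SD, n = 3 per group; log2 fold change 1.00, edgeR adjusted p = 3.64e-05). The coactivator genes Ncoa1 and Ncoa3 rose by 0.47 and 0.39 on the log2 scale, and Macrod1, which removes the ADP-ribose that TIPARP adds, fell by 1.15 (edgeR adjusted p = 0.00499).

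Of 26 further AHR targets, 16 were tested in the mouse, where 9 were higher and 2 lower with a median of 0.76. Some of those called higher had few reads in WT, with 3, 4 and 6 for Xdh and 10, 8 and 9 for Il6. Xdh, Il6 and Ptgs2 passed the count filter only through their cKO libraries, where they were high. Such genes raise the count of higher targets and the median, so nothing is read from either. Whether the listed targets respond to AHR in these cells was not tested. Polk, a translesion DNA polymerase, rose from 18.3 ± 1.20 to 67.8 ± 3.30 CPM (SD, n = 3 per group; log2 fold change 1.89, edgeR adjusted p = 3.34e-06), and the guanine exchange factor gene Vav3 from 18.9 ± 0.848 to 37.1 ± 2.21 CPM (edgeR adjusted p = 7.30e-05). Ptgs2, which encodes cyclooxygenase 2, had 2, 3 and 3 reads in WT against 28, 46 and 30 in cKO, so that it was at least 10.6-fold higher than 3 counts per library. Cyp1a2, the hepatic relative of Cyp1a1, had at most 2 counts in any mouse library. In the human cells 14 were tested, 3 higher and 7 lower, with a median of -0.16. IL1B, an inflammatory cytokine, had 671, 609 and 639 reads in shNC against 71, 80 and 84 in shDDX21, a fall from 37.1 ± 2.33 to 4.39 ± 0.646 CPM (SD, n = 3 per group; log2 fold change -3.08, edgeR adjusted p = 3.15e-41). CYP2S1, an extrahepatic P450 counted in this list and in that of other P450 enzymes, rose from 17.1 to 28.0 CPM (log2 fold change 0.71, edgeR adjusted p = 1.52e-13). NFE2L2, the gene of NRF2, was not called in either experiment, at -0.05 and -0.04.

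Among the 16 genes of ligand supply, 11 were tested in the mouse, with 3 higher, 3 lower and a median of -0.35, and 12 in the human cells, with 2 higher, 6 lower and a median of -0.13. Kmo, which takes kynurenine onward to hydroxykynurenine, fell from 2.64 ± 0.207 to 0.956 ± 0.268 CPM in the mouse (SD, n = 3 per group; log2 fold change -1.47, edgeR adjusted p = 0.00198). AADAT, an aminotransferase that makes kynurenic acid, fell from 14.4 ± 0.432 to 7.69 ± 0.504 CPM in the human cells (log2 fold change -0.90, edgeR adjusted p = 3.20e-12). The amino acid transporter gene SLC7A5, an importer of tryptophan and kynurenine, was lower in both, at -0.37 in the mouse and -0.55 in the human cells (edgeR adjusted p = 0.00405 and 5.13e-32). QPRT, which leads from the pathway to NAD, rose by 0.26 in the human cells (edgeR adjusted p = 6.12e-16). Human IDO1, IDO2, TDO2 and KMO were not analysed here.

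The 23 genes of the NRF2 battery, to which NQO1 also belongs, did not move one way: 7 were higher and 6 lower in the mouse (median -0.05), and 11 were higher and 10 lower in the human cells (median 0.06). Haem oxygenase, which breaks down haem, was higher in both, with log2 fold changes of 1.50 for Hmox1 (edgeR adjusted p = 0.0034) and 0.85 for HMOX1 (edgeR adjusted p = 6.74e-24). Malic enzyme, a source of NADPH, was higher in the mouse and lower in the human cells, at 2.06 for Me1 and -1.28 for ME1 (edgeR adjusted p = 0.000325 and 5.87e-28). In the hypoxia branch 5 genes were higher and 5 lower of 20 in the mouse (median -0.04), and 3 were higher and 10 lower of 19 in the human cells (median -0.12). LDHA and VEGFA, for lactate production and vessel growth, fell by 0.73 and 0.85 (log2) in the human cells (edgeR adjusted p = 2.99e-36 and 2.06e-28). EGLN3 and PDK1 were among the 3 higher there, at 0.40 and 0.16. In the mouse Pdk1 and Bnip3 fell by 0.42 and 0.55 (edgeR adjusted p = 0.000199 and 0.00125). Hif1a and Egln3 rose there by 0.45 and 0.62 (edgeR adjusted p = 0.000664 and 0.00143). The part of ARNT in these changes was not tested.

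Other P450 and conjugating enzymes gave 2 higher and 2 lower of 19 in the mouse (median 0.02), and 8 higher and 8 lower of 18 in the human cells (median -0.06). Ephx1, the microsomal epoxide hydrolase that acts on the products of CYP1 enzymes, had 8, 6 and 2 reads in WT against 139, 153 and 165 in cKO, rising from 0.248 ± 0.138 to 6.58 ± 0.786 CPM (SD, n = 3 per group; edgeR adjusted p = 2.75e-05). This rise stood beside that of the hepatocyte markers given above, whose part in it was not tested. In the human cells TPMT, a thiopurine methyltransferase, fell by 1.07 on the log2 scale (edgeR adjusted p = 2.97e-21) and the glutathione transferase MGST1 by 0.74 (edgeR adjusted p = 1.23e-24), while GSTO1 rose by 0.36 (edgeR adjusted p = 1.82e-14).

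**Figure D4:**
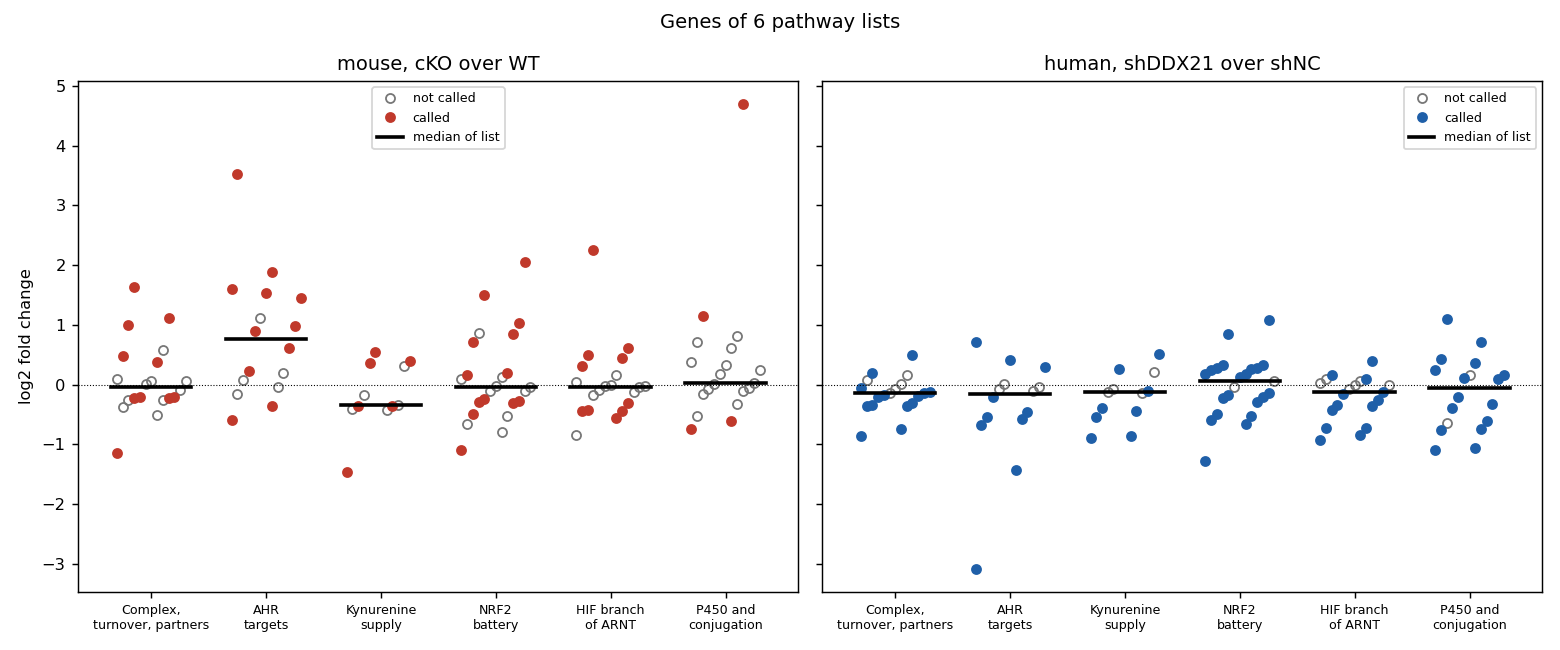
Log2 fold change (vertical axis) of the genes of 6 pathway lists in mouse cKO over WT (left) and human shDDX21 over shNC (right); filled points were called by edgeR, open points were not, and the line is the median. The targets have a median of 0.76 in the mouse and -0.16 in the human cells. The mouse median includes genes that passed the count filter only through cKO, where they were high.

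The genes whose profile was most like that of CYP1A1 and of CYP1B1 were sought among 9639 genes matched by symbol, over all 12 libraries. Each profile was log2 (CPM + 0.5) less the mean of its own control group, and likeness was the root mean square distance. Nearest to CYP1A1 were OLR1 (0.33), IL7R (0.35), SAPCD2 (0.35), MPO (0.40) and TIFAB (0.47). All 5 had lower values in both experiments, which follows from choosing them by likeness to CYP1A1. In the mouse and the human cells the log2 fold changes were -0.95 and -1.96 for OLR1, -2.09 and -2.32 for IL7R, and -0.81 and -2.36 for MPO. MPO, for myeloperoxidase, is also one of the granulocyte markers. Nearest to CYP1B1 were SSR1 (0.24), S100A9 (0.29), BIRC3 (0.33), RBBP8 (0.35) and GTF3A (0.35). Because mouse Cyp1b1 had almost no counts, its mouse profile is flat, and these genes had mouse values of -0.13 to 0.32 and human values of -2.27 to -1.98.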

How the data were processed

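Gene counts of 12 RNA libraries were taken as the authors deposited them: whole-number read counts per gene, not normalized. The tools STAR, featureCounts and DESeq2 and the builds mm10 and hg38 are named, without versions or strand setting, per the submitters' processing notes. A second deposited table per experiment holds a normalized signal, checked to equal the count divided by 1 constant per library (largest relative deviation 4.97e-10), and the authors' log2 ratios. It was used for symbols only. Mouse identifiers were in GENCODE M21 for 99.4% of genes, and all 7 members had the same position there. Human symbols were known for 14931 of 78932 genes. No per-sample column was left unused, and the labels name no batch.

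Each experiment was fitted separately with edgeR 4.0.16 in R 4.3.3 (filterByExpr, TMM, quasi-likelihood test, two-sided, no covariates), and calls were made where p, adjusted by Benjamini-Hochberg over 14918 mouse or 20188 human genes, was under 0.05. CPM and RPKM were computed from the counts with TMM-scaled library sizes and the deposited exon lengths. SE was obtained as the size of the log2 fold change divided by the root of F. The biological coefficient of variation was 10.5% in the mouse and 2.23% in the human cells. A level of 3 counts per library was taken as the detection floor, which covers counting error only. For a lone value, exact permutation of 3 against 3 libraries cannot go below 0.1.

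The members and gene lists were chosen with earlier results of these data known. From each list the genes named are among the up to 4 called genes with the smallest p, or are called in both experiments. NFE2L2, Cyp1a2, Il1b, Xdh and Il6 fall outside this rule and were chosen after their values were seen. In simulated counts with 200 changed genes, 92 of 100 2-fold and 100 of 100 4-fold changes were recovered in the mouse (18 false calls among 14636 genes), and 99 and 100 of 100 in the human simulation (13 among 19710). The changed genes were drawn only from those above a minimum mean count, which mouse Cyp1a1 does not reach. Recovery of genes with few counts was thus not measured. The simulation also changed far fewer genes than were called in the data, and set no library apart. Alternatives were RLE, total-count and upper-quartile scaling, no filter, DESeq2 1.42.0, a replicate block and leaving out libraries. A result for 1 gene of the lists is not reported here.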

Additional observations from a re-analysis of the deposited data

Results flagged for a closer look

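Of the genes taken up by the rule for named genes, 5 of the 7 AHR genes and 54 list genes were tested in both experiments. For 22 of these 59, every perturbed library lay above the controls in one experiment and below them in the other. The list genes were taken up because they were called, which favours groups that do not overlap. Among all 3061 genes called in both experiments, 1325 went opposite ways. The share of all genes that met the rule on libraries was not computed, so nothing particular to the set is read from the 22. None of the 7 AHR genes was among them. In each case the difference between the experiments was not tested, and species, cell type and means of DDX21 loss cannot be told apart. The values below are the mouse log2 fold change minus the human one.

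Mouse values were the higher ones for 16 genes. The difference was 4.10 for PTGS2, whose mouse control level was at the detection floor, 3.34 for ME1, 2.60 for EPAS1, 2.50 for BMAL2, 1.75 for CYP4V2, 1.69 for MAFF and 1.59 for HES1. It was 1.34 for SRXN1, 1.23 for KYAT1, 1.23 for NDRG1, 1.19 for RB1, 0.93 for KYAT3, 0.69 for TXNRD1, 0.67 for PFKFB3, 0.61 for HIF1A and 0.59 for NCOA3. Mouse values were the lower ones for 6 genes, with differences of -1.37 for BLVRB, -0.99 for CYB5R3, -0.89 for CDKN1B, -0.58 for PDK1, -0.54 for MAFG and -0.47 for PGD.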

How the results depend on the processing

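The total number of genes called stayed within 1.5 times under every alternative run. For all mouse genes it was 5443, and 3717 to 5671 when 1 library was left out; for all human genes it was 10631, and 9820 to 10079. The lower calls in the mouse moved further, from 2360 to 1368 without cKO replicate 3, 1480 without WT replicate 2 and 1498 without WT replicate 1, while the higher calls were 3083 and then 2349, 2385 and 2435. For the pathway lists it was 53 in the mouse (38 to 56) and 80 in the human cells (72 to 79). The share of higher calls in the mouse was 56.6%, but 68.9% with total-count scaling (3565 higher, 1612 lower) and 46.6% without WT replicate 3 and cKO replicate 1 (3086 and 3533), an alternative chosen after seeing the data. In the human cells the share of higher calls was 48.0%, but 57.4% with upper-quartile scaling (6255 higher, 4635 lower) and 43.7% with total-count scaling. Scaling moved the median of all genes by at most 0.07 (log2). DESeq2 called 4494 mouse and 8931 human genes, and 49 and 70 list genes.

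No member changed direction under any alternative run. Log2 fold changes ranged from -2.32 to -1.60 for mouse Cyp1a1, from -2.80 to -2.43 for human CYP1A1 and from -2.75 to -2.64 for CYP1B1. Mouse Ahr and human AHR crossed the threshold in either direction as given above. Calls were lost under some alternative for 16 mouse list genes (67 values) and 3 human ones (18 values); the cause was not tested. Replicate numbers did not pair the samples: deviations of same-numbered libraries correlated at 0.449, -0.263 and 0.0389 in the mouse and between -0.0178 and 0.00206 in the human cells. With a replicate block 5166 mouse and 10601 human genes were called, and 55 and 80 list genes. The depth limits mouse Ahrr and Cyp1b1, which could not be tested.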

Other observations

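Of the pathway genes beyond the 7 members, 98 were tested in both experiments and 39 were called in both, which is 79.6% of the 49 called in the mouse and 50.6% of the 77 called in the human cells. Over all 10313 genes matched by symbol and tested in both, 3061 were called in both, or 71.9% of those called in the mouse and 43.4% of those called in the human cells. Of the 39 genes, 11 were lower in both, 6 were higher in both and 22 went opposite ways. Among the 3061 genes called in both, 1736 went the same way and 1325 opposite ways. Nothing particular to the pathway is read from the 39. Those lower in both included GCLC, which catalyses the first step of glutathione synthesis (-0.30 in the mouse and -0.29 in the human cells), VEGFA (-0.45 and -0.85), HIF3A, a hypoxia factor that also pairs with ARNT (-0.44 and -0.94), MACROD1 (-1.15 and -0.31) and EP300, a histone acetyltransferase (-0.22 and -0.13). Those higher in both included LPCAT2, a lysophospholipid acyltransferase (0.61 and 0.41), the efflux pump ABCC1 (0.72 and 0.29), the prolyl hydroxylase EGLN3 (0.62 and 0.40) and NCOA1 (0.47 and 0.19). Human IL1B was the list gene with the largest fall, while mouse Il1b had 1 to 2 counts in WT and 2 to 8 in cKO and was not tested.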
